A study of Macaca fascicularis with 8 samples.

Results

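Colon-only regions are stretches of DNA called as open chromatin peaks in the cynomolgus monkey colon library and in no other organ's peak list. They were found by merging the peak lists of colon, heart, kidney, male liver, lung, spleen and uterus, with peaks joined where they shared at least 1 bp, and by keeping the merged regions that held colon peaks alone. This gave 24599 colon-only regions of 245443 merged regions (10.02%). Each of them was made of 1 colon peak, so they were also 22.7% of the 108470 colon peaks. The rule used only the presence of peaks. Since an overlap of 1 bp made a peak shared, a wide peak was more easily left out, so low width, and the depth that goes with it, follow in part from the rule and are given as a description.

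Single cells of 7 organs were profiled for open chromatin by scATAC-seq, with 8 libraries made from healthy adult cynomolgus monkeys, 1 female and 1 male. The female gave colon, lung, heart and uterus and a first liver library, and the male gave spleen, kidney and a second liver library, here called female and male liver. There was 1 library of colon, so nothing was tested between animals or organs, and barcodes and regions are not replicates. An organ of the male differs from colon in both organ and animal, which cannot be told apart. Peaks were called in each library separately, and each count matrix covers that library's own peaks, so a colon-only region is one without a called peak elsewhere and its counts in other organs were not analysed here.

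Open chromatin is where the transposase of the assay can reach the DNA, mostly at promoters and at enhancers. Promoters are often open in many cell types, whereas enhancers tend to be open in few. The colon wall holds an absorptive and secretory epithelium over a lamina propria rich in lymphocytes and in plasma cells that make IgA, together with stromal, vascular and muscle cells, and a peak called on all its cells may come from any of these.

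Colon had the most counts of the 8 libraries, 110748462 cut ends in peaks, against 2627231 to 102697781 in the others. All 12404 colon barcodes in the file had at least 1000 counts, with a lowest total of 1797 and a median of 7446. This is more barcodes than the cell number that the study's methods set for colon. Of these barcodes, 1157 carried a sequence that also occurred in another library, from 37 shared with the female liver to 362 shared with spleen. Leaving them out gave the same share of counts in colon-only regions, 5.96%.

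Colon-only regions were narrow. Their median width was 399 bp (quartiles 261.5 and 558 bp, n = 24599), against 502 bp for the 20978 colon peaks found in 1 other list and 1367 bp for the 23113 colon peaks found in all 7 lists. Widths ran from 1 to 3942 bp, and 291 colon-only regions were under 10 bp wide. Only 5.34% were wider than 1000 bp, against 31.6% of the other colon peaks. In all they covered 11.1 Mb of the 94.1 Mb under colon peaks, or 11.8% of that length.

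They were also shallow. A colon-only region had a median of 183 counts (quartiles 110 and 331), against 295 for colon peaks with 1 other list and 1774 for those of all 7 lists. Together they held 6605187 counts, or 5.96% of the colon counts, which is less than their 22.7% of the peaks and less than their 11.8% of the peak length. When a peak counted as shared only if another list covered at least 50% of it, there were 33045 regions with 15.03% of the counts. Per kb of peak, the median was 479 counts for colon-only regions, 572 for peaks of 2 lists and 1167 for peaks of all 7. A count is a cut end, and 70.9% of the nonzero values in colon-only regions were even, against 89.8% over all colon peaks.

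The difference in depth depended on the width at which it was read. Among peaks of 200 to 400 bp, the median was 134 counts in colon-only regions, 136 in peaks of 2 to 6 lists and 122 in peaks of 7 lists. From 400 to 600 bp the medians were 253, 274 and 287 counts in the same order. From 600 to 1000 bp they were 503, 588 and 651, and from 1000 to 2000 bp they were 832, 1127 and 2409. A narrow colon-only region was thus about as deep as any narrow colon peak, whereas the 1213 colon-only regions of 1000 to 2000 bp had fewer counts than shared peaks of that width.

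Few cells carried a count in any given colon-only region. The median region was seen in 0.879% of the colon barcodes, against 1.31% for peaks of 2 lists and 6.54% for peaks of all 7 lists. As with depth, this difference depended on width. Among peaks of 200 to 400 bp the medians were 0.685% in colon-only regions, 0.701% in peaks of 2 to 6 lists and 0.621% in peaks of 7 lists. From 1000 to 2000 bp they were 3.12%, 4.18% and 8.76% in the same order. A share of at least 1% was reached by 10281 colon-only regions (41.8%), against 72.0% of the other colon peaks. A share of at least 5% was reached by 215 of 24599 colon-only regions, against 19329 other colon peaks (23.0%). The highest share was 10.5% in a colon-only region and 68.8% in another colon peak. No count was found in 182 regions, which allows a share of up to 0.0242% of the 12404 barcodes with a count and sets no limit on the share of cells open there.

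**Figure D1:**
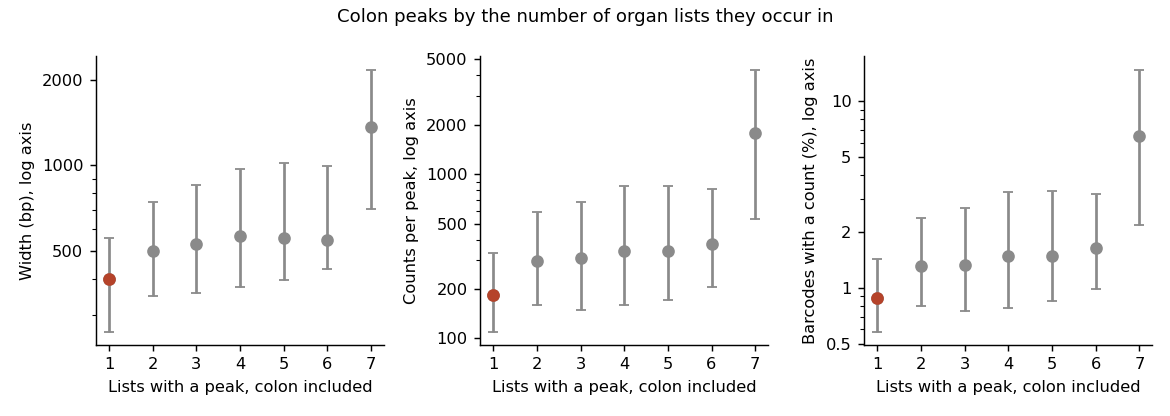
Width, counts and share of barcodes with a count for colon peaks, grouped by the number of lists with a peak (points are medians, bars run from the lower to the upper quartile, y axes are logarithmic, red marks the colon-only regions). Colon-only regions have the lowest median on each axis, 399 bp, 183 counts and 0.879% of barcodes.

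On each of the 21 chromosomes colon-only regions had a lower median width and a lower median count than colon peaks of 2 lists. The female liver list was not used by the rule, but the rule removed every region with a male liver peak and the classes of shared peaks can hold one, so the values are a description. It held a peak at 12.9% of colon-only regions (24.2% when a peak counted as shared only if another list covered at least 50% of it), against 49.1% of colon peaks with 1 other list and 96.0% of those in all 7. By the main rule the share was lower than for peaks of 2 lists on 21 of 21 chromosomes. This list was called from 2110 barcodes with the fewest counts of the series, but it was the longest, with 165942 peaks.

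The regions with the most counts give the upper end of the range. The first was chr2:126480462-126484403, also the widest at 3942 bp, with 3690 counts (exact Poisson interval 3525 to 3861, for counting error only) in 9.34% of barcodes (exact binomial interval 8.84% to 9.87%). The second, chr11:42829496-42832478, had 3431 counts and the widest spread over cells, 10.5% of barcodes (9.96% to 11.05%). The third, chr2:183306778-183308367, had 3296 counts in 9.90% of barcodes. The files hold no gene names and the sources used here do not give the peaks' genome build, so positions are printed as in the peak list and no gene is assigned to them.

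The edge of the rule was set by a few bases. Only 33 colon-only regions lay less than 10 bp from a peak of another list, and 506 colon peaks counted as shared by an overlap of less than 10 bp, peaks that were themselves narrower than 10 bp included. Nearest inside were chr1:212137377-212137700, with 96 counts, and chr10:76565132-76565227, with 25 counts, which touched a male liver and a uterus peak without sharing a base. The third, chr12:38137269-38137663 with 137 counts, lay 1 bp from a male liver peak. The smallest overlaps outside were those of peaks 1 bp wide at chromosome 1 positions 11924244, 60843819 and 74323321, each without a count in colon, which lay wholly inside a peak of another list. Most regions were far from this edge. The median gap to the nearest peak of another list was 2873 bp, 18.2% had a gap of over 10 kb, and 3.70% were within 250 bp.

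Along the chromosomes, colon-only regions were spread more evenly than colon peaks of all 7 lists. They numbered 8.84 per Mb on the median chromosome, with a lowest value of 5.14 on X and a highest of 10.6 on chromosome 16, a 2.07-fold range. Colon peaks of all 7 lists ranged 8.49-fold, from 3.27 per Mb on X to 27.8 on chromosome 19. The colon-only share of colon peaks was therefore lowest on chromosome 19, with 492 of 3926 peaks (12.5%, exact binomial interval 11.5% to 13.6%), and highest on chromosome 5, with 1408 of 4860 (29.0%, 27.7% to 30.3%). Chromosome X had 28.6% and chromosome 18 had 27.9%. Colon came from the female and kidney, spleen and male liver from the male. On X, sex, animal and organ therefore cannot be told apart. Across the 21 chromosomes this share fell with the density of peaks of all 7 lists (Pearson's r = -0.95, Spearman's rho = -0.99), which are also counted in its denominator. The density of colon-only regions itself went up with it (r = 0.41, rho = 0.65). Both relations are descriptions.

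**Figure D2:**
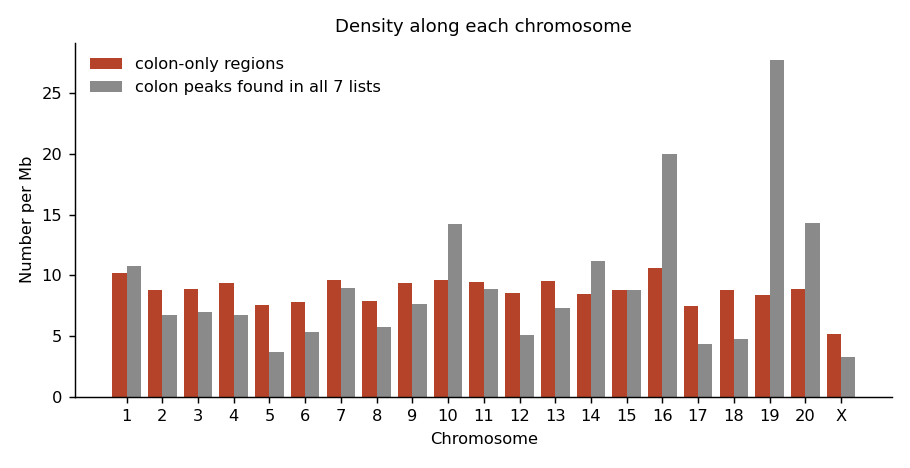
Number of colon-only regions (red) and of colon peaks found in all 7 lists (grey) per Mb of each chromosome, whose length is taken up to its last peak. Red bars stay between 5.14 and 10.6 per Mb, whereas grey bars run from 3.27 to 27.8.

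Of 2836 windows of 1 Mb, 2536 (89.4%) held a colon-only region. The fullest 10% of windows held 26.9% of colon-only regions, against 42.0% for peaks of all 7 lists in their own fullest windows. Colon-only regions lay farther from widely shared peaks, with a median distance of 41567 bp to a colon peak of all 7 lists, against 34253 bp for peaks of 2 lists. At short range they followed each other. The next colon peak after a colon-only region was also colon-only in 34.3% of cases, against 22.7% of all colon peaks, and 41.7% had another within 10 kb. Other classes followed each other too, with 38.1% for peaks of all 7 lists, which were 21.3% of colon peaks, and 25.9% for peaks of 2 lists, which were 19.3%. They formed 16174 runs of successive peaks, of which 11314 were of 1 region, and 29.9% of colon-only regions stood in runs of at least 3.

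The longest runs had 14 regions and there were 4 of them. They were chr4:67868883-68120623, chr5:91474884-91772737, chr13:10428270-11932117 and chr16:62830883-62950939, and they spanned from 120057 to 1503848 bp. In the chromosome 4 run the regions ranged from 2 to 1089 counts. The 1 Mb window with the most regions was chr16:68000001-69000000, where 46 of 99 colon peaks were colon-only and 10 were found in all 7 lists. It was followed by chr11:94000001-95000000 with 38, chr6:122000001-123000000 with 37, and chr8:126000001-127000000 and chr13:60000001-61000000 with 36 each.

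The counts of colon-only regions were unevenly spread over the cells, and a minority of cells held more than its share of them. A barcode had a median of 3.82% of its counts in them, with 1.85% at the lower and 13.7% at the upper limit of the middle 80% of barcodes, and a range from 0.851% to 21.4%. The share measured on odd-numbered chromosomes and the share measured on even-numbered chromosomes and X went together over the 12404 barcodes (r = 0.97, rho = 0.95), which share their library and depth. The colon-only share had no monotonic relation with depth (rho = -0.03), and the median depth of 10 groups of barcodes ranked by it moved up and down between 4865.5 and 10171.5 counts.

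To keep the ranking apart from the measurement, barcodes were ranked by their colon-only share on the odd-numbered chromosomes and read on the others. The first 10% of barcodes held 22.8% of the held-out colon-only counts and 9.55% of all counts on all chromosomes, a ratio of 2.39. With the chromosomes exchanged the values were 24.3% and 9.68%, a ratio of 2.51. The same measure gave ratios from 1.04 to 1.42 in the other classes of colon peaks. It was 1.42 and 1.35 for peaks of 2 lists and 1.2 both ways for peaks of all 7. Peaks of all 7 lists held 60.4% of the colon counts and colon-only regions held 5.96%. A class that holds more of the counts has a lower upper limit of this ratio, so these ratios are not on the same scale. Of the peaks of 2 lists, 13148 of 20978 were shared with spleen and had another distribution over barcodes, as given next, so this class is mixed. When a colon peak counted as shared only if another list covered at least 50% of it, the first 10% held 14.2% of the held-out colon-only counts. After removal of 1538 likely doublets they held 25.4% of the held-out colon-only counts.

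From the first to the last 10% of barcodes in this ranking, held-out colon-only counts fell from 67.8 to 8.37 per 1000 counts in all peaks. These counts are of even-numbered chromosomes and X only, whereas the 1000 counts and the other classes of peaks below cover all chromosomes. Colon-only levels can thus be compared between groups of barcodes but not with the levels of the other classes. The first 2 groups, at 67.8 and 58.7, stood apart from the third and the fourth, at 40.2 and 31.8. Peaks shared with spleen alone went the other way between them, from 15.6 and 21.8 per 1000 counts in the first 2 groups to 83.3 and 96.2 in the next 2. Peaks of colon, kidney and male liver alone had 30.6 and 26.6 per 1000 in the first 2 groups and 10.4 and 6.001 in the next 2. Peaks shared with lung alone had 15.03 and 13.2 per 1000 in the first 2 groups against 5.26 and 3.09 in the next 2, and those shared with heart or uterus alone were higher in the first 2 groups as well. Peaks of colon and spleen alone stayed at 69.5 to 84.1 in the last 6 groups, where colon-only counts were low.

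**Figure D3:**
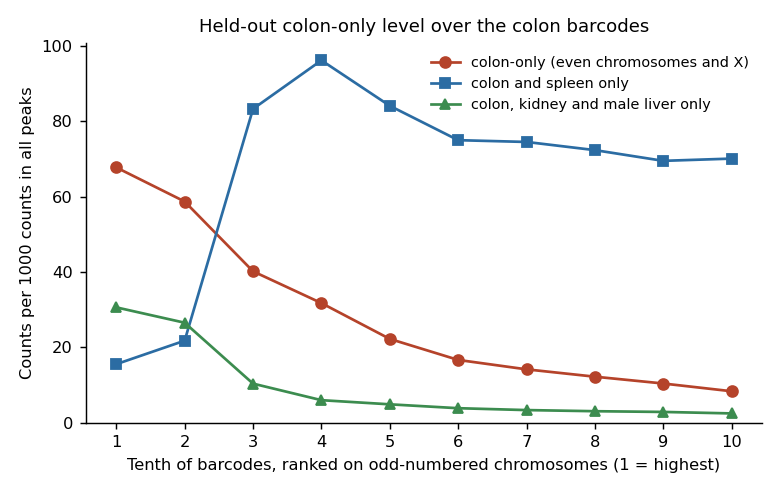
Counts per 1000 counts in all peaks for 10 groups of 1240 or 1241 colon barcodes, ranked by their colon-only share on odd-numbered chromosomes. Colon-only values are from even-numbered chromosomes and X and fall from 67.8 to 8.37, while peaks of colon and spleen alone rise from 15.6 in the first group to 96.2 in the fourth. The other classes and the 1000 counts cover all chromosomes, so the heights of colon-only and other lines are not comparable.

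The barcodes were then clustered on 20729 colon peaks of regions found in all 7 lists, so that no colon-only region entered the clustering. This gave 18 clusters of at least 50 barcodes. They are called by number because, apart from the JCHAIN and EGFL7 windows printed by the study, no gene was placed on the peaks. Clusters 3, 8 and 10, of 1208, 749 and 565 barcodes, had 135, 132 and 125 colon-only counts per 1000. Cluster 2, of 1772 barcodes, followed with 68.8 and cluster 1, of 1909 barcodes, with 52.8. The other 13 clusters had from 20.3 to 40.5, and the median cluster had 30.7. With only the colon-only counts of even-numbered chromosomes and X taken, still per 1000 counts of all chromosomes, the order of the first 4 was the same. These held-out levels were 62.9, 61.1, 57.3 and 33.3, which are not on the scale of the values above. When a peak counted as shared only if another list covered at least 50% of it, the highest held-out level was 109. By that rule the regions held 15.03% of all colon counts, against 5.96% by the main rule. The level of 109 therefore does not show a stronger contrast between clusters.

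Clusters 3, 8 and 10 were grouped as those with the highest level on the odd-numbered chromosomes, so the values that follow, which include these chromosomes, are partly set by that choice. Their 2522 barcodes (20.3%) held 43.9% of all colon-only counts and 19.8% of all counts, with 132 colon-only counts per 1000 against 41.7 in the other 15 clusters. Their depth was similar to that of the other clusters, with medians of 7348.5 and 7479.5 counts. For the middle 80% of barcodes the colon-only share lay between 10.01% and 15.7% in these 3 clusters and between 1.77% and 7.74% in the others. The same 3 clusters had 6.001 times the level of the others in peaks of colon, kidney and male liver alone, 5.26 times in peaks of colon and lung alone, 5.22 times in peaks of colon and male liver alone, 5.06 times in peaks of colon and kidney alone and 0.253 times in peaks of colon and spleen alone. The ratio was 4.40 for peaks of colon and uterus alone, 3.17 for colon-only regions, 3.09 for peaks of colon and heart alone and 0.357 for peaks of colon, lung and spleen alone.

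**Figure D4:**
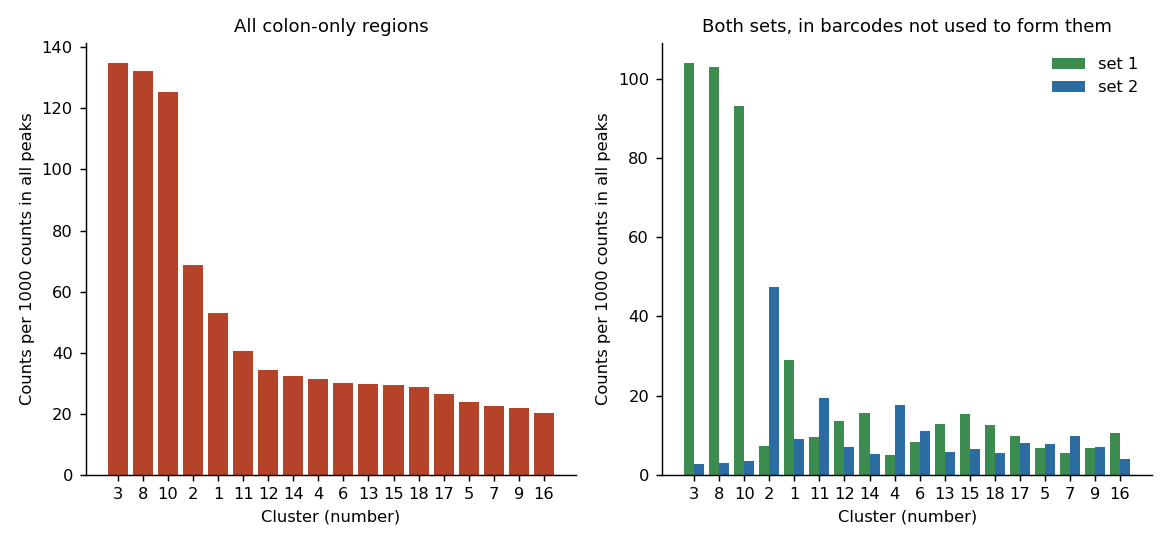
Left, colon-only counts per 1000 counts in all peaks in the 18 clusters, numbered by size. Right, the levels of sets 1 and 2 of colon-only regions in the barcodes whose ratios did not place regions in the sets. These barcodes did enter the clustering, the choice of the high clusters and the minimum of 200 counts per region. Clusters 3, 8 and 10 stand at 125 to 135 on the left and at 93.0 to 104 for set 1, and cluster 2 is highest for set 2 with 47.4. Counting intervals are too narrow to be drawn at this scale.

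Single regions were mostly high on either side of this contrast. For the 11223 colon-only regions with at least 200 counts (45.6%), the level in clusters 3, 8 and 10 was set against that in the other 15 clusters as a log2 ratio, with 1 count added on each side. The ratio was above 1 in 6507 regions (58.0%), under -1 in 4338 (38.7%) and between these limits in 378 (3.37%). The minimum of 200 counts can be passed through the clusters where a region is high, so these shares describe the regions that passed and not all colon-only regions. Among colon peaks of all 7 lists, 64.3% lay between the limits, but few did so in the classes most like colon-only regions, 5.35% of peaks of 2 lists, 4.96% of peaks of colon and kidney alone and 3.54% of peaks of colon and uterus alone. The sparse middle was thus not particular to colon-only regions. Of peaks of colon and spleen alone 90.8% were under -1, and of peaks of colon, kidney and male liver alone 83.6% were above 1. Because the clusters were picked for their colon-only level on odd-numbered chromosomes, the excess of positive values is partly set by that choice, and it is given as a description.

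**Figure D5:**
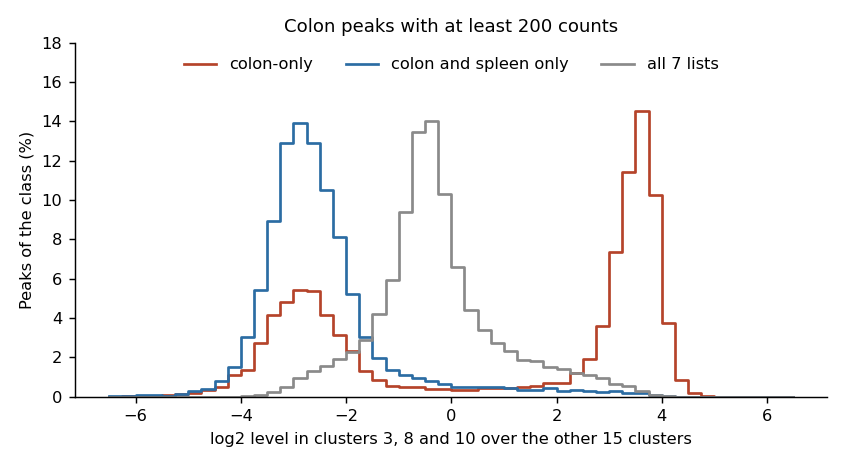
Log2 ratio of the level in clusters 3, 8 and 10 to that in the other 15 clusters for colon peaks with at least 200 counts, as percent of each class in bins of equal width (values past the ends of the axis are put in the end bins). Colon-only regions (red) form a peak on each side and leave 3.37% between -1 and 1, where 64.3% of peaks of all 7 lists (grey) lie.

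To see how far counting error moved these ratios, the barcodes were split at random into 2 parts of the same library, of which the first placed 6506 regions in set 1 (log2 ratio above 1), 4320 in set 2 (under -1) and 397 between. The clusters themselves came from all barcodes of both parts. The minimum of 200 counts per region and the choice of the clusters with the highest level also used both parts. In the second part, of 6202 barcodes, the median log2 ratio was 3.47 for set 1 and -2.75 for set 2, and 99.6% and 98.1% of their regions stayed past the same limit. A region can pass the minimum through the clusters where it is high, so this agreement can be partly set by these choices and is not an independent check. Set 1 held 46.1% of all colon-only counts and set 2 held 29.8%. The sets overlapped in width and depth, with higher medians in set 1, 603 against 539 bp and 363 against 344 counts.

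The sets were defined by this contrast, so their levels by cluster are a description. In the second part of the barcodes set 1 had 104, 103 and 93.0 counts per 1000 in clusters 3, 8 and 10, followed by 29.0 in cluster 1, and 7.38 in cluster 2. Set 2 had 47.4 in cluster 2, 19.3 in cluster 11, 17.6 in cluster 4 and 2.76 in cluster 3. Cluster 2 was the deepest, with a median of 12753.5 counts, and 23.1% of its barcodes were likely doublets against 12.4% of all barcodes. The part of doublets in the level of cluster 2 was not tested. After removal of likely doublets from all clusters, 5046 regions were above 1 and 2872 under -1, of 8137 that still had 200 counts. Leaving out the barcodes shared with other libraries gave 5921 and 3885 of 10112.

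The sets differed in what lay around them. The female liver list held a peak at 7.87% of set 1, 21.4% of set 2 and 35.0% of the regions between. The nearest colon peak that was not colon-only was one of colon and spleen alone for 10.5% of set 1 and 26.7% of set 2, where such peaks were 15.7% of the other colon peaks. For peaks of colon with kidney, male liver or both alone the values were 21.4% and 12.3%, against 9.48%. The nearest peak of any other list was a spleen peak for 16.5% of set 1 and 29.7% of set 2. Over all colon-only regions the value was 23.0%.

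Neighbouring colon-only regions with at least 200 counts tended to be highest in the same kind of cluster. Each region was read as highest in clusters 3, 8 and 10 or in another cluster, the first of a pair in the first part of the barcodes and the second in the second part. Of 2824 pairs that followed each other within 20 kb, 80.9% were alike, where the shares of regions highest in the 3 clusters in both parts give 50.7% for unrelated pairs. Of 3363 successive pairs at least 200 kb apart, 55.1% were alike, also above 50.7%. The minimum of 200 counts used both parts of the barcodes and can be passed through the clusters where a region is high. Agreement between neighbours is not given here for other classes of peaks. It is therefore a description and is not shown to be particular to colon-only regions. Set 1 made up from 53.7% of both sets on chromosome 18 to 70.8% on chromosome 16. In the fullest window, chr16:68000001-69000000, 20 of its 22 regions with at least 200 counts had a log2 ratio above 1, and clusters 3, 8 and 10 held 66.9% of its colon-only counts. In chr6:122000001-123000000 it was 6 of 21, with 25.7% of the counts, and in chr11:94000001-95000000 it was 7 of 21, with 17.2%. Of the regions with at least 200 counts in the 4 runs of 14, the log2 ratio was above 1 in 4 of 5 on chromosome 4, 7 of 8 on chromosome 5, 5 of 5 on chromosome 13 and 4 of 4 on chromosome 16, beside 58.0% of all colon-only regions with at least 200 counts.

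The regions with the most counts showed both patterns. In chr2:126480462-126484403 clusters 3, 8 and 10 held 2.90% of the counts (log2 ratio -3.03), and the region was highest in cluster 2. In chr2:183306778-183308367 they held 76.1% (log2 ratio 3.70), and it was highest in cluster 8. The region on chr11:42829496-42832478 was among the few between the limits, with 28.7% and a log2 ratio of 0.71, and was highest in cluster 2. The other 7 of the 10 regions with the most counts had 2644 to 3113 counts, and clusters 3, 8 and 10 held 74.0% to 82.1% of these in 5 regions and 2.40% and 3.38% in the regions chr8:94170155-94173477 and chr7:301824-304092. The 5 widest regions, which besides the first were on chromosomes 6, 13, 18 and 12, all had log2 ratios from -3.75 to -2.19 and were highest in cluster 2. The 5 regions with the most concentrated counts were likewise highest in cluster 2, for example chr8:118819177-118820735, whose 1928 counts came from 667 barcodes where its depth alone would give 932.

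A colon-only region with at least 200 counts was seen in a median of 0.938 times the number of barcodes that its counts and the barcodes' depths would give, against 0.940 for peaks of 2 lists and 0.951 for peaks of all 7. This measure says little about clusters at such depths, since chr4:67956597-67957082, with 330 counts of which clusters 3, 8 and 10 held 75.5%, read 0.959. When the cluster with the highest level was picked in the first part of the barcodes, its log2 level over the other clusters in the second part had a median of 2.85 for colon-only regions, 2.21 for peaks of 2 lists and 0.86 for peaks of all 7. These values cover the 11223, 13786 and 21032 peaks of each class with at least 200 counts. A shallow region can pass this minimum through the cluster where it is high, so the difference between classes can be partly set by it. The same cluster was highest in both parts for 73.8% of colon-only regions, 65.5% of peaks of 2 lists and 49.9% of all other colon peaks. The highest cluster was cluster 2 for 23.2% of colon-only regions, cluster 3 for 22.3%, cluster 8 for 18.8% and cluster 10 for 14.8%. In the same order the values were 7.09%, 6.59%, 6.74% and 5.51% for the other colon peaks with at least 200 counts.

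JCHAIN encodes the joining chain of IgA and IgM, which plasma cells make. In the JCHAIN window shown by the study, whose positions are taken to be of the peaks' build, 7 of 18 colon peaks were colon-only, and in its EGFL7 window, around a gene of endothelial cells, 0 of 11 were, beside 22.7% of all colon peaks. The study picked JCHAIN for its accessibility along a colon B cell trajectory and EGFL7 for its many peak-gene pairs. Both choices rest on data that include this library, so the shares are a description. Of the 7 colon-only regions in the JCHAIN window, chr5:63606135-63607364 had the most counts, 926 in 3.43% of barcodes, with 2.16% of them in clusters 3, 8 and 10. Next were chr5:63641717-63642982 with 783 counts and 2.04%, and chr5:63662480-63663730 with 540 counts and 2.22%. In 6 of the 7 the log2 ratio was between -3.48 and -2.15, where 38.7% of the colon-only regions with at least 200 counts were under -1. The exception was chr5:63578490-63578643, with 47 counts and a ratio of 4.37. All peaks of the window together had 358 counts per 1000000 counts in cluster 2 and 360 in cluster 11, and 118 to 134 in clusters 3, 8 and 10. This level did not follow the colon-only level, since clusters 4 and 7, with 31.3 and 22.5 colon-only counts per 1000, had 321 and 291, and clusters 5, 14 and 15 had 132, 135 and 105.

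Regions called in 1 list alone also had lower values than the other peaks of the library in lung, heart and kidney, and the held-out ratios there were lower than in colon. Lung had 14105 lung-only regions (16.9% of its peaks, median width 391 bp), heart 12391 (18.03%, 358 bp) and kidney 29922 (27.7%, 401 bp). In each library's own barcodes of at least 1000 counts, the held-out ratio for the first 10% was 2.03 both ways in lung, 1.60 and 1.61 in heart, and 1.18 and 1.17 in kidney, against 2.39 and 2.51 in colon. The spread of the share over barcodes gave another order, since the limits of the middle 80% of barcodes differed 8.06-fold in lung and 7.40-fold in colon. The female liver list held a peak at 10.3% of lung-only, 13.0% of heart-only and 6.04% of kidney-only regions, and at 33.0% of spleen-only and 33.4% of male liver-only regions. Depth, number of barcodes and length of the lists differ between libraries, so these values stand side by side without a test.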

How the data were processed

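Reads were processed by the authors with cellranger-atac 1.2.0, with a cell number forced for liver, lung, colon and spleen; peaks were called per library. The deposited values are raw, unnormalized counts of transposase cut ends in each peak of each barcode. The study names a genome build for its scRNA-seq reads, but the sources used here do not give that of the scATAC-seq peaks. Peaks were therefore matched to no gene or sequence, except for the JCHAIN and EGFL7 windows, which take the study's printed positions to be of the peaks' build.

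Barcodes with at least 1000 counts were kept, and doublets stayed in the main values. Likely doublets were scored with 2 simulated doublets per barcode and 50 nearest neighbours and removed as an alternative (1538 of 12404 in colon). Clustering used binarized peaks seen in at least 1% of barcodes, term frequency weighting, 30 components (1 dropped for its correlation with depth) and Leiden at resolution 0.8 on 20 nearest neighbours. Fragments were taken as counts divided by 2, rounded up per value, and Poisson intervals (95%) were computed on these. The floor is 3 counts. Intervals cover counting error only. Regions were named by fixed rules: the 10 with the most counts, the 5 widest, the 5 most concentrated, the 5 fullest windows, the longest runs, those nearest the rule's limit, and the JCHAIN and EGFL7 windows of the study. The regions, lists and rules were chosen with earlier results of these data known. Scripts were tested on simulated data (Python 3.11.15, numpy 2.4.6, scipy 1.17.1, pandas 2.3.3, scikit-learn 1.9.0, igraph 0.11.9, leidenalg 0.10.2, matplotlib 3.10.9).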

Additional observations from a re-analysis of the deposited data

How the results depend on the processing

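There was 1 colon library, so its values have no replicate error, and 42 of 61 values under other settings moved past the tolerance, which was 1.5 times for a number of regions and the narrow counting interval or interval of a median for the rest. The other 19 include numbers of regions that changed by less than 1.5 times, such as 33045 and 21425 against 24599 under the 50% cover rule and with the female liver list, and 5046 against 6507 without likely doublets. No paired analysis was possible because colon had 1 library and no groups were compared by a test. When peaks within 250 bp counted as shared, colon-only regions held 5.78% of counts, the first 10% of barcodes held 22.9% of the held-out colon-only counts, and the cluster highest on odd-numbered chromosomes had 61.1 held-out colon-only counts per 1000 (main values 5.96%, 22.8% and 62.9). When a peak counted as shared only if another list covered at least 50% of it, which adds wide colon peaks, the width was 464 bp, the depth 232 counts, the barcode share 1.06%, the share of counts 15.03%, the first 10% held 14.2%, the cluster level was 109, the female liver share 24.2% and the next peak was colon-only in 42.1%. With the female liver list included, the barcode share was 0.863%, the share of counts 5.12%, the first 10% held 24.5%, the cluster level was 57.6 and the next-peak share 31.7%. With only peaks seen in at least 1% of barcodes, there were 10281 regions of 601 bp and 376 counts, with a barcode share of 1.57%, a share of counts of 4.68%, 22.5% in the first 10%, a cluster level of 51.0, a female liver share of 14.8% and a next-peak share of 27.9%. With at least 2000 counts per barcode, the barcode share was 0.893%, the first 10% held 22.5% and the cluster level was 63.2. With likely doublets removed, the depth was 137 counts, the barcode share 0.745% and the share of counts 5.94%. The first 10% held 25.4% and the cluster level was 64.4. Fewer barcodes leave fewer counts per region. Regions lower in the 3 clusters went from 4338 to 2872, and those higher in them from 6507 to 5046. The cause of this unequal change was not tested. Thinned to 1000 counts per barcode, the barcode share was 0.153%, the first 10% held 23.4% and the cluster level was 58.4. The first 5% held 11.3%. Resolutions 0.4 and 1.2 gave cluster levels of 57.6 and 62.5. Chosen after seeing the data were the counts of regions in the 3 clusters and their alternatives, another random seed, which left the level within its interval, and leaving out barcodes shared with other libraries, which gave 165 counts and 22.9% in the first 10%. Where the construction of a setting does not show it, the cause was not tested.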

Other observations

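Sets 1 and 2 were defined by opposite ratios between clusters of all barcodes, so a barcode high in the first is low in the second by construction, and the few exceptions are given as values. Of the 6202 barcodes in the second part, 1551 were taken as the highest in set 1, and 33 of these (2.13%) were also in the same upper share of all barcodes for set 2. Of these 33, 81.8% were among those scored as doublets, against 12.4% of all barcodes, and their median depth was 15353 counts.

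For colon-only regions with few counts the log2 ratio depends on the 1 count added, so they are described by their summed counts. Clusters 3, 8 and 10 held 32.0% of the counts of the 2896 regions under 50 counts, 43.0% for the 2439 regions of 50 to 100 counts and 41.4% for the 8041 regions of 100 to 200 counts, against 45.7% for the 723 regions of at least 1000. Regions under 50 counts had a median width of 70 bp.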
